A study of Mus musculus with 9 samples.

Results

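The 29 genes described here encode the enzymes of cholesterol synthesis, the proteins that control its transcription factor SREBP2, and proteins that move sterols inside the cell. They were chosen by name, as known parts of the pathway, when earlier results of these data were already known. Each symbol matched 1 of the 55487 gene identifiers in the count lists. All 29 also passed the filter on low counts that left 14312 genes for testing, and the lowest count of any of them in any library was 68, for Tm7sf2. RNA was sequenced from RAW264.7 cells, a mouse macrophage line, cultured without any stimulation. The 3 genotypes, with 3 libraries each, were CEBPD wild type cells, CEBPD KO cells and CEBPD TAD mutant cells, here called wild-type, knock-out and ΔTAD macrophages. In ΔTAD macrophages CRISPR/Cas9 guides removed the transactivation domain of the transcription factor C/EBPδ from its own gene, and out-of-frame products of the same guides served as knock-out cells. The edited cells were grown from single cells, and the series describes the edited libraries as independent clones. The spread within a genotype was small (common biological coefficient of variation 0.0468). Whether each edited library came from a separate clone was not tested. Other assays of the study also used wild-type clones, but whether the sequenced wild-type libraries were clones, cultures or repeats is not given in the sources used here. The p-values below therefore measure the spread between these libraries only, and a difference between genotypes cannot be told apart from a difference between the cells that founded the clones. In bulk RNA, fewer cells expressing a gene and less of its RNA per cell cannot be told apart either.

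Cholesterol is built from acetyl-CoA through mevalonate, isoprenoids and squalene, and the last steps reshape lanosterol, the product of the ring closure, into cholesterol. SREBP2, encoded by Srebf2, is held in the endoplasmic reticulum by its escort Scap and by the Insig proteins while sterols are plentiful. When sterols fall, Scap carries SREBP2 to the Golgi, where the proteases encoded by Mbtps1 and Mbtps2 free its active part, which then switches on most enzymes of the pathway. In macrophages, which take up large amounts of lipid, this pathway also sets the supply of intermediates that act on lipid-sensing receptors.

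Each library held 16113306 to 20981829 counts on genes. Levels are given in CPM, read counts brought to a common library size with the TMM scaling of edgeR. ΔTAD replicate 1 stood apart, since the rRNA-like identifier CT010467.1 took 11.001% of its counts against 0.303% to 1.16% in the other 8 libraries, so results of ΔTAD macrophages were also computed without it. Cebpd, the edited gene, had 70 to 130 counts per library, and no difference between genotypes was called (log2 fold change −0.26, adjusted p = 0.085 in knock-out and −0.24, adjusted p = 0.0931 in ΔTAD against wild-type macrophages, edgeR). Because most of its transcript survives the edits, these counts do not check the labels. Of the 8 macrophage markers, all were tested, and their summed level lay between 2613 and 2761 CPM in wild-type, between 3625 and 3975 CPM in knock-out and between 6002 and 6156 CPM in ΔTAD libraries. Markers of B cells, fibroblasts and epithelial cells summed to at most 0.249 CPM in any library. Of the T cell markers, Cd3e, Cd3g and Cd8a had no counts in any library, whereas Lck was at 4.41 to 7.28 CPM. Most of the rise in the summed macrophage markers was Lyz2, the lysozyme gene. Its means were 1166, 2112 and 4187 CPM in wild-type, knock-out and ΔTAD macrophages. Of the 8, 5 were called higher and 1 lower in knock-out and 6 higher and 1 lower in ΔTAD macrophages, the lower gene being Fcgr1 (log2 fold changes −1.14 and −0.44). Calls among all genes tested were 22.8% higher and 22.4% lower in knock-out and 26.3% higher and 23.4% lower in ΔTAD macrophages. The part of the marker shifts in the results below was not tested.

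Most sterol genes were higher in both edited genotypes. Differences were called at an adjusted p-value under 0.01, from the quasi-likelihood test of edgeR with p-values adjusted over all genes tested by the Benjamini-Hochberg method. By this rule 24 of the 29 were higher and 3 lower in knock-out than in wild-type macrophages, while 22.8% of all genes tested were called higher and 22.4% lower. In ΔTAD macrophages 23 of the 29 were higher and 2 lower, against 26.3% and 23.4% of all genes tested. The 29 genes had medians of 0.47 (knock-out) and 0.58 (ΔTAD) on the log2 scale, where the median of all genes tested was −0.00 for either genotype. Both comparisons use the same wild-type libraries. Without ΔTAD replicate 1, 20 of the 29 were higher and 3 lower in ΔTAD macrophages. Scaling by library size alone, without the TMM factor of 0.888 for that replicate (0.999 to 1.027 for the others), left 20 higher and 3 lower, whereas it turned the calls among all genes from 3765 higher and 3350 lower to 2587 higher and 3941 lower.

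**Figure D1:**
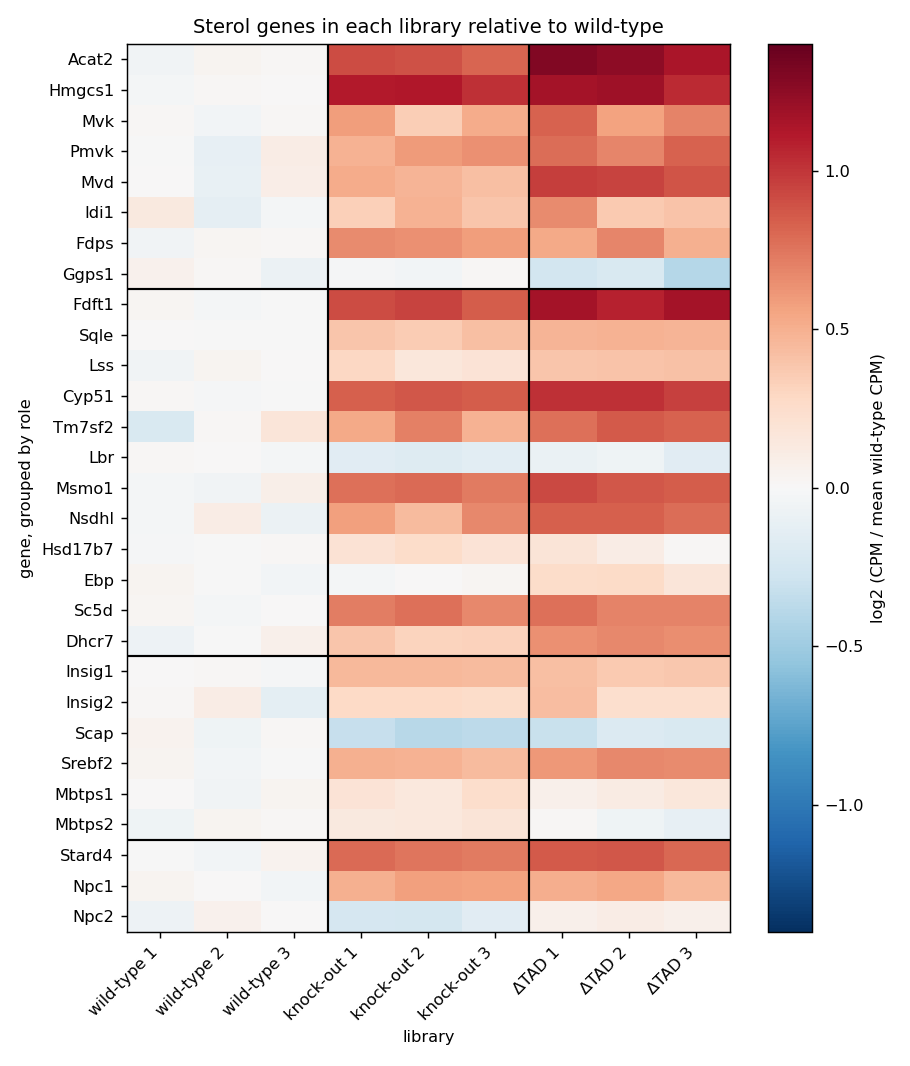
Level of each of the 29 genes (rows, grouped by role) in each of the 9 libraries (columns) as log2 of its CPM over the mean wild-type CPM, red higher and blue lower. Most rows are red in all 6 edited libraries, and the clearest blue is in Scap, Lbr, Ggps1 in ΔTAD and Npc2 in knock-out macrophages.

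Of the 8 early enzymes, which lead from acetyl-CoA to farnesyl and geranylgeranyl diphosphate, 7 rose in each edited genotype. Among all genes tested, 22.8% were called higher in knock-out and 26.3% in ΔTAD macrophages. Among the early enzymes, Hmgcs1 (chr13:119690379-119708260) had the steepest rise in knock-out macrophages. Hmgcs1 encodes the synthase that makes HMG-CoA and so commits acetyl units to the pathway. Hmgcs1 had 88.2, 91.1 and 90.5 CPM in the wild-type libraries, 194.2, 196.3 and 183.2 CPM in the knock-out libraries and 202.4, 204.7 and 185.5 CPM in the ΔTAD libraries. The edited libraries lay far above the wild-type libraries, by 2.13-fold in knock-out and 2.196-fold in ΔTAD macrophages. For Hmgcs1 the log2 fold change against wild-type was 1.09 (standard error 0.0412, adjusted p = 6e-17, edgeR) after knock-out and 1.13 (standard error 0.0411, adjusted p = 2e-17, edgeR) after loss of the domain. Acat2 (chr17:12942890-12960747) encodes the cytosolic thiolase that joins acetyl units just before that step. Acat2 had 27.5, 29.4 and 28.9 CPM in the wild-type libraries, 53.7, 52.9 and 50.4 CPM in the knock-out libraries and 70.4, 68.3 and 62.99 CPM in the ΔTAD libraries. The 3 groups did not overlap and ΔTAD was highest. For Acat2 the log2 fold change against wild-type was 0.87 (standard error 0.0529, adjusted p = 5.35e-13, edgeR) after knock-out and 1.23 (standard error 0.0511, adjusted p = 2.84e-16, edgeR) after loss of the domain. Acat2 lies on chromosome 17, where the 746 genes tested had medians of 0.48 (knock-out) and 0.50 (ΔTAD) on the log2 scale. In a fit with an offset for each chromosome, its log2 fold change was 0.40 (adjusted p = 1.04e-06, edgeR) and 0.74 (adjusted p = 9.51e-12, edgeR), so it rose beyond its chromosome in both genotypes.

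Mevalonate is next phosphorylated by the kinases encoded by Mvk and Pmvk and decarboxylated by the product of Mvd. Pmvk (chr3:89454541-89469013) rose in both edited genotypes. Pmvk had 16.3, 15.1 and 17.6 CPM in the wild-type libraries, 22.9, 24.6 and 25.5 CPM in the knock-out libraries and 28.2, 26.2 and 28.9 CPM in the ΔTAD libraries. For Pmvk the log2 fold change against wild-type was 0.57 (standard error 0.0743, adjusted p = 3.96e-07, edgeR) after knock-out and 0.76 (standard error 0.0724, adjusted p = 1.87e-09, edgeR) after loss of the domain. The ΔTAD libraries were above the knock-out libraries, but that difference was not called. Mvd (chr8:122433601-122443422) was higher in ΔTAD than in knock-out macrophages. Mvd had 27.2, 25.2 and 28.9 CPM in the wild-type libraries, 38.9, 37.7 and 36.3 CPM in the knock-out libraries and 53.2, 52.3 and 50.01 CPM in the ΔTAD libraries. For Mvd the log2 fold change against wild-type was 0.47 (standard error 0.0583, adjusted p = 1.82e-07, edgeR) after knock-out and 0.93 (standard error 0.0557, adjusted p = 3.36e-13, edgeR) after loss of the domain. Mvk rose as well, with log2 fold changes of 0.49 (knock-out) and 0.69 (ΔTAD). Fdps, which condenses the isoprenoid units to farnesyl diphosphate, rose from 22.9 ± 0.598 CPM (n = 3, SD) to 35.5 ± 0.924 CPM (n = 3, SD) in knock-out and 34.2 ± 2.301 CPM (n = 3, SD) in ΔTAD macrophages, and these edited groups overlapped. Idi1, the isomerase that readies the units for Fdps, was at 7.01 ± 0.659 CPM (n = 3, SD) in wild-type macrophages. Idi1 had a log2 fold change of 0.40 (standard error 0.1099, adjusted p = 0.00357, edgeR) after knock-out and 0.46 (standard error 0.108, adjusted p = 0.000761, edgeR) in ΔTAD macrophages. These calls depended on single libraries, since Idi1 was no longer called in knock-out macrophages without wild-type replicate 2 or 3 or without knock-out replicate 2 or 3, and in ΔTAD macrophages without ΔTAD replicate 1. The enzyme that draws farnesyl diphosphate away from sterols, the geranylgeranyl diphosphate synthase Ggps1, did not rise. Its level was 29.05 ± 1.48 CPM (n = 3, SD) in wild-type, 28.8 ± 0.595 CPM (n = 3, SD) in knock-out and 23.9 ± 1.605 CPM (n = 3, SD) in ΔTAD macrophages, where it fell by 0.29 on the log2 scale (adjusted p = 0.000478, edgeR). Its exons overlap those of Arid4b on the opposite strand, with log2 fold changes of 0.32 (knock-out) and 0.19 (ΔTAD).

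Beyond farnesyl diphosphate, 10 of the 12 enzymes that form squalene and work on the sterol rings rose in each edited genotype. The shares called higher among all genes tested were 22.8% in knock-out and 26.3% in ΔTAD macrophages. Fdft1 (chr14:63145150-63179578), squalene synthase, is the step that commits carbon to sterols. Fdft1 had 30.8, 29.7 and 30.2 CPM in the wild-type libraries, 56.7, 58.2 and 54.6 CPM in the knock-out libraries and 67.8, 63.9 and 67.6 CPM in the ΔTAD libraries. The groups stood apart, with ΔTAD highest. For Fdft1 the log2 fold change against wild-type was 0.90 (standard error 0.0473, adjusted p = 3.53e-14, edgeR) after knock-out and 1.13 (standard error 0.0462, adjusted p = 1.97e-16, edgeR) after loss of the domain. An end of Fdft1 overlaps exons of Ctsb, an abundant gene on the other strand with 49711 to 80013 counts per library, which changed less, by 0.45 in knock-out and 0.30 in ΔTAD macrophages on the log2 scale. Whether reads were counted by strand is not given in the sources used here. Sqle, the epoxidase that follows and a rate-limiting step, was, per length of exon, the most abundant of these enzymes after Lbr and rose by less, from 184.4 ± 0.765 CPM (n = 3, SD) to 241.9 ± 5.38 CPM (n = 3, SD) in knock-out and 256.6 ± 1.94 CPM (n = 3, SD) in ΔTAD macrophages. Lss, which closes the rings to lanosterol, had log2 fold changes of 0.22 (knock-out) and 0.40 (ΔTAD), both called.

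Lanosterol is then stripped of its extra methyl groups. Cyp51 (chr5:4081145-4104746) removes the methyl group at C14. Cyp51 had 103.8, 101.3 and 102.5 CPM in the wild-type libraries, 182.9, 186.9 and 185.1 CPM in the knock-out libraries and 207.9, 207.6 and 199.5 CPM in the ΔTAD libraries. Levels within a genotype were tight and the groups did not overlap. For Cyp51 the log2 fold change against wild-type was 0.85 (standard error 0.0347, adjusted p = 2.63e-16, edgeR) after knock-out and 0.999 (standard error 0.0346, adjusted p = 8.3e-18, edgeR) after loss of the domain. Its exons overlap those of Akap9 on the other strand, with log2 fold changes of 0.12 (knock-out) and 0.02 (ΔTAD). Msmo1 (chr8:64718139-64733792), the C4 methyl oxidase, works on the next pair of methyl groups. Msmo1 had 118.4, 116.3 and 127.5 CPM in the wild-type libraries, 205.7, 208.9 and 200.5 CPM in the knock-out libraries and 228.3, 221.1 and 216.7 CPM in the ΔTAD libraries. For Msmo1 the log2 fold change against wild-type was 0.76 (standard error 0.0391, adjusted p = 2.09e-14, edgeR) after knock-out and 0.88 (standard error 0.03901, adjusted p = 1.08e-15, edgeR) after loss of the domain. Nsdhl (chrX:72918557-72958514), the dehydrogenase of the same demethylation, lies on chromosome X, whose 446 tested genes had a median of −0.01 on the log2 scale in each edited genotype. Nsdhl had 32.8, 35.9 and 31.5 CPM in the wild-type libraries, 49.7, 45.3 and 53.1 CPM in the knock-out libraries and 59.7, 59.7 and 57.3 CPM in the ΔTAD libraries. For Nsdhl the log2 fold change against wild-type was 0.57 (standard error 0.05801, adjusted p = 8.22e-09, edgeR) after knock-out and 0.82 (standard error 0.0565, adjusted p = 5.48e-12, edgeR) after loss of the domain. Every edited library lay above every wild-type library for these 3 genes, which were shown by library because of their large fold changes. The share of all genes tested that separate in this way was not counted.

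Tm7sf2 and Lbr share a reaction, the reduction of the C14 double bond that the action of Cyp51 leaves, and in knock-out macrophages they moved in opposite directions. Tm7sf2 (chr19:6062821-6068373) encodes the dedicated reductase and was, per length of exon, the scarcest of the 29 genes. Tm7sf2 had 3.39, 3.99 and 4.42 CPM in the wild-type libraries, 5.69, 6.398 and 5.49 CPM in the knock-out libraries and 6.71, 7.15 and 6.99 CPM in the ΔTAD libraries. The groups did not overlap although counts were low, but the difference between knock-out and ΔTAD macrophages was not called (adjusted p = 0.0863, edgeR). For Tm7sf2 the log2 fold change against wild-type was 0.58 (standard error 0.134, adjusted p = 0.000634, edgeR) after knock-out and 0.84 (standard error 0.128, adjusted p = 4.47e-06, edgeR) after loss of the domain. Lbr, the lamin B receptor, which anchors chromatin at the nuclear envelope and carries the same reductase activity, was at 242.01 ± 3.31 CPM (n = 3, SD) in wild-type and 216.5 ± 2.66 CPM (n = 3, SD) in knock-out macrophages, where it fell by 0.16 on the log2 scale (adjusted p = 0.000437, edgeR). In ΔTAD macrophages it was at 225.2 ± 7.15 CPM (n = 3, SD) and its difference from wild-type was not called (log2 fold change −0.10, adjusted p = 0.0143, edgeR). The call in knock-out macrophages was lost with library size alone. Leaving out ΔTAD replicate 1 or 2, DESeq2 or its size factors, and library size alone brought Lbr under the threshold in ΔTAD macrophages. The exons of Tm7sf2 overlap those of Vps51 on the same strand, whose difference was called in neither genotype.

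Of the late enzymes, Sc5d, which sets the double bond at C5, rose by about the same amount in both, from 45.01 ± 0.90 CPM (n = 3, SD) to 74.2 ± 2.64 CPM (n = 3, SD) and 74.1 ± 2.27 CPM (n = 3, SD). Dhcr7, which makes cholesterol from 7-dehydrocholesterol, rose from 35.9 ± 1.83 CPM (n = 3, SD) to 45.4 ± 1.31 CPM (n = 3, SD) in knock-out and 56.5 ± 0.566 CPM (n = 3, SD) in ΔTAD macrophages. The ketoreductase Hsd17b7 and the isomerase Ebp were each called in 1 genotype. Hsd17b7 had a log2 fold change of 0.22 (standard error 0.0408, adjusted p = 7.94e-05, edgeR) in knock-out and 0.10 (standard error 0.04103, adjusted p = 0.0449, edgeR) in ΔTAD macrophages. Ebp had 0.23 (standard error 0.0488, adjusted p = 0.000267, edgeR) in ΔTAD macrophages, whereas its level in knock-out macrophages was 0.998 times that in wild-type macrophages (standard error 0.0501 on the log2 scale). The ΔTAD call of Ebp was lost with library size alone.

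**Figure D2:**
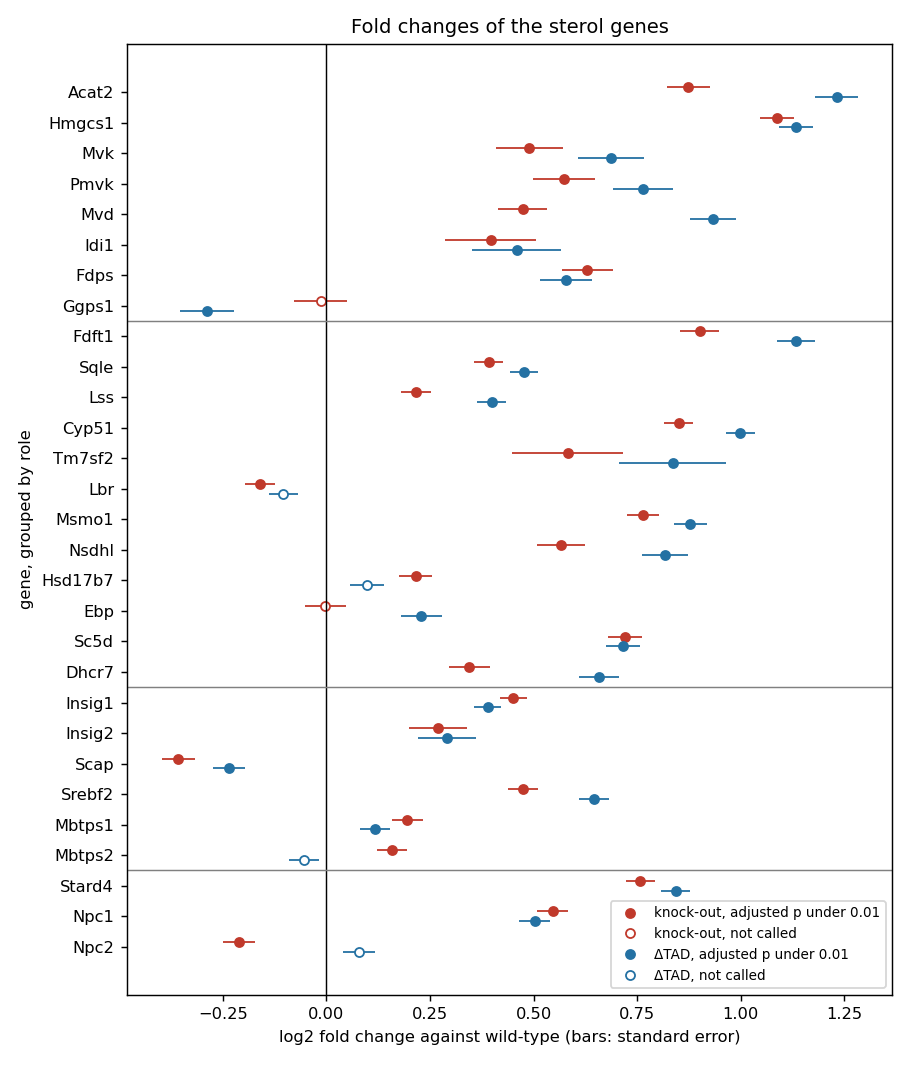
Log2 fold change against wild-type macrophages of the 29 genes, grouped by role, in knock-out (red) and ΔTAD (blue) macrophages, with standard errors as bars and open circles for values that were not called. Hmgcs1, Acat2, Fdft1 and Cyp51 lie farthest to the right, and Scap lies left of 0 in both genotypes.

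Levels between genes were compared per length, as CPM per kb of exon. Exon length joined the exons of all annotated transcripts of a gene, and the order of genes and the sums below depend on that choice. On this scale wild-type macrophages held most of Lbr (50.8 ± 0.696, n = 3, SD), Npc2 (40.6 ± 1.78, n = 3, SD), Sqle (33.2 ± 0.138, n = 3, SD) and Srebf2 (29.7 ± 0.724, n = 3, SD). The lowest were Idi1 (2.000 ± 0.188, n = 3, SD) and Tm7sf2 (0.893 ± 0.117, n = 3, SD). In ΔTAD macrophages Lbr (47.3 ± 1.503), Srebf2 (46.4 ± 1.17), Cyp51 (46.4 ± 1.09) and Sqle (46.3 ± 0.3495, SD, n = 3 each) stood at levels that differed by no more than their spread. Summed over the 20 enzymes, the wild-type libraries held 274.8, 273.5 and 276.4 CPM per kb, the knock-out libraries 384.9, 383.1 and 381.6, and the ΔTAD libraries 431.3, 426.7 and 411.65. The sum of the 8 early enzymes was 74.2 ± 1.55 in wild-type, 122 ± 2.22 in knock-out and 139 ± 5.10 CPM per kb in ΔTAD macrophages (n = 3, SD). For the 12 later enzymes it was 201 ± 0.212 in wild-type, 262 ± 0.944 in knock-out and 285 ± 5.21 CPM per kb in ΔTAD macrophages (n = 3, SD). These sums are given as a description without a test.

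**Figure D3:**
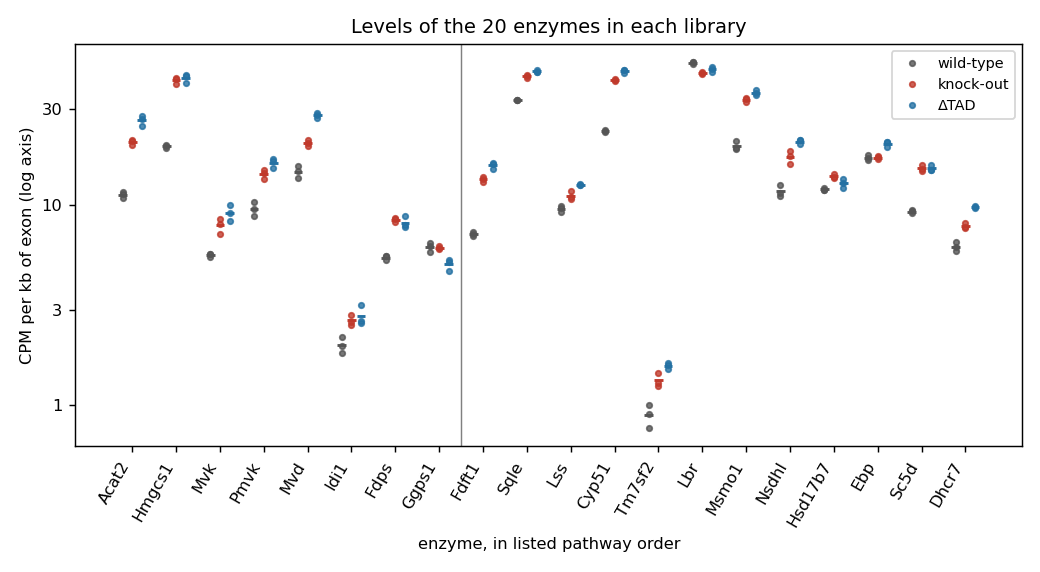
Level of each of the 20 enzymes, in the order of the pathway as listed, as CPM per kb of exon on a log axis. Points are single libraries and short bars the means of 3. The edited libraries lie above the wild-type libraries for most enzymes, while Ggps1, Lbr, Ebp and Hsd17b7 depart from this in at least 1 genotype.

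Promoters are shown for the 4 enzymes with the largest change in either edited genotype that have an entry in RefSeq's promoter sequences (GRCm38.p6). They hold, or lack, matches to short motifs, among them those of elements through which sterol genes are known to be driven. SREBP2 acts together with NF-Y, which binds the box CCAAT, and C/EBP factors bind TTGCNNAA. Each run goes from 250 bases before to 50 bases after the start, 5′ to 3′ on the strand of the gene, from chr13:119690101-119690400 on the plus strand for Hmgcs1 and on the minus strand from chr17:12960676-12960975 for Acat2, chr5:4104648-4104947 for Cyp51 and chr8:122443373-122443672 for Mvd. Capitals mark matches on either strand to these motifs or to TCACNCCAC, the core of the sterol regulatory element.
Hmgcs1: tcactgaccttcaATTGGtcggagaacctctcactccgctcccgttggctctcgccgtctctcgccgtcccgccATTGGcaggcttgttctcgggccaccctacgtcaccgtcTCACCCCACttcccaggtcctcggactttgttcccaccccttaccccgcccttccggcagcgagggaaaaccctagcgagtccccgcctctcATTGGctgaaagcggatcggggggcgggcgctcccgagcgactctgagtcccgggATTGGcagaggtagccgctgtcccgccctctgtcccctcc
Acat2: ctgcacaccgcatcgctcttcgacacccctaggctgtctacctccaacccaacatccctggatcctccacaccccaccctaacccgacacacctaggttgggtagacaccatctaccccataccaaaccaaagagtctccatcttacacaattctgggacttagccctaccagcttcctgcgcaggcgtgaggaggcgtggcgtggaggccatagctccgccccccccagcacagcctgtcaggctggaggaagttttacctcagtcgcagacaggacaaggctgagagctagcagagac
Cyp51: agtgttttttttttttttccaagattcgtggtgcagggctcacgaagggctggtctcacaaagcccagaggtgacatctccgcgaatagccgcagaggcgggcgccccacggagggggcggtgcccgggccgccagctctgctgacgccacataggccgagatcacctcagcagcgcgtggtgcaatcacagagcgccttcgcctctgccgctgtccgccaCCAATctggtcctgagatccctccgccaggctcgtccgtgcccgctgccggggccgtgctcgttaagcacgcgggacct
Mvd: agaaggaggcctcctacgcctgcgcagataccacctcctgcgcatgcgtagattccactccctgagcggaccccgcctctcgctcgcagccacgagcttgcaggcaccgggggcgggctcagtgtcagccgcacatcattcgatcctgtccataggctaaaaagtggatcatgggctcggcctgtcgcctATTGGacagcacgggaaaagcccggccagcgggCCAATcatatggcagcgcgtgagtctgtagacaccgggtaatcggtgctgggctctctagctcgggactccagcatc

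The Hmgcs1 promoter held TCACCCCAC starting at position −137 and 4 matches to the NF-Y box, at −237, −176, −45 and 11. Cyp51 held the box at −29, Mvd at −60 and −27, and Acat2 held none of these letters in this window. Of the 29 genes, 24 had an entry, and Fdft1, Fdps, Npc1, Sqle and Stard4 had none. The NF-Y box occurred in 20 of the 24 (83.3%), against 43.3% of the 9189 tested genes with an entry and 41.1% of all 27025. The sterol element core occurred in 1 of the 24, against 1.43% of the tested genes and 1.44% of all. The C/EBP site occurred in 3 of the 24 (12.5%), Dhcr7, Npc2 and Nsdhl, against 9.82% of the tested genes and 12.2% of all. Matches of letters do not show that a factor binds there. Only this 1 form of the sterol element was searched, so the lack of a match does not show that a promoter lacks the element. The 3 motifs were counted separately, although in Nsdhl the C/EBP site and the box overlap.

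Of the 6 genes that control SREBP2, 5 were higher and Scap lower in knock-out, and 4 were higher and Scap lower in ΔTAD macrophages. The shares over all genes tested were 22.8% higher and 22.4% lower in knock-out and 26.3% higher and 23.4% lower in ΔTAD macrophages. Srebf2 itself (chr15:82147181-82205379) was higher in both edited genotypes. Srebf2 had 218.6, 208.3 and 212.4 CPM in the wild-type libraries, 301.4, 298.4 and 289.2 CPM in the knock-out libraries and 324.4, 340.7 and 335.9 CPM in the ΔTAD libraries. The wild-type libraries were lowest and the ΔTAD libraries highest, with no overlap. For Srebf2 the log2 fold change against wild-type was 0.48 (standard error 0.0361, adjusted p = 3.92e-11, edgeR) after knock-out and 0.65 (standard error 0.0361, adjusted p = 9.25e-14, edgeR) after loss of the domain. Scap (chr9:110333288-110384950), the escort that SREBP2 needs to leave the endoplasmic reticulum, moved the other way. Scap had 83.5, 77.4 and 81.5 CPM in the wild-type libraries, 64.7, 61.8 and 62.6 CPM in the knock-out libraries and 64.8, 70.6 and 69.9 CPM in the ΔTAD libraries. All edited libraries lay below the wild-type libraries. For Scap the log2 fold change against wild-type was −0.36 (standard error 0.0401, adjusted p = 3.98e-08, edgeR) after knock-out and −0.24 (standard error 0.0395, adjusted p = 1.49e-05, edgeR) after loss of the domain. Insig1 (chr5:28071363-28078662), which retains the SREBP2 and Scap complex and is itself a target of SREBP2, rose. Insig1 had 70.3, 70.5 and 68.8 CPM in the wild-type libraries, 95.9, 95.4 and 95.3 CPM in the knock-out libraries and 93.9, 90.03 and 91.03 CPM in the ΔTAD libraries. For Insig1 the log2 fold change against wild-type was 0.45 (standard error 0.0326, adjusted p = 1.55e-11, edgeR) after knock-out and 0.39 (standard error 0.0326, adjusted p = 2.05e-10, edgeR) after loss of the domain. The wild-type libraries were lowest and the knock-out libraries highest. Its relative Insig2 (chr1:121304353-121332589), which has the same retaining function, also rose. Insig2 had 23.7, 25.2 and 21.3 CPM in the wild-type libraries, 28.4, 28.3 and 27.96 CPM in the knock-out libraries and 31.5, 27.5 and 27.5 CPM in the ΔTAD libraries. For Insig2 the log2 fold change against wild-type was 0.27 (standard error 0.0703, adjusted p = 0.00216, edgeR) after knock-out and 0.29 (standard error 0.0698, adjusted p = 0.000932, edgeR) after loss of the domain. For Insig2 the edited groups overlapped each other and lay above wild-type. It lost its call in ΔTAD macrophages without ΔTAD replicate 1 (0.20) and in both genotypes without wild-type replicate 3 (0.21 in knock-out, 0.23 in ΔTAD macrophages). Its ΔTAD call was also lost with library size alone. The 2 proteases of the Golgi changed by little. Mbtps1, the site-1 protease, had log2 fold changes of 0.20 (standard error 0.0373, adjusted p = 8.58e-05, edgeR) in knock-out and 0.12 (standard error 0.0373, adjusted p = 0.00905, edgeR) in ΔTAD macrophages. The latter call was lost without any 1 ΔTAD library, without wild-type replicate 1 or 2, or without knock-out replicate 3, and also with DESeq2 or its size factors and with an offset for each chromosome. Mbtps2, the site-2 protease, was called in knock-out macrophages only, with 0.16 (standard error 0.0362, adjusted p = 0.000655, edgeR) against −0.05 (standard error 0.0366, adjusted p = 0.206, edgeR) in ΔTAD macrophages. With library size alone, the knock-out calls of both proteases and the ΔTAD call of Mbtps1 were lost.

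Of the 3 sterol carriers, Stard4 and Npc1 rose and Npc2 depended on the genotype. Stard4 (chr18:33199355-33213862) encodes a soluble protein that carries cholesterol between membranes. Stard4 had 67.4, 65.8 and 69.9 CPM in the wild-type libraries, 117.1, 113.7 and 112.4 CPM in the knock-out libraries and 122.4, 123.99 and 117.99 CPM in the ΔTAD libraries. For Stard4 the log2 fold change against wild-type was 0.76 (standard error 0.0353, adjusted p = 3.44e-15, edgeR) after knock-out and 0.84 (standard error 0.03502, adjusted p = 2.95e-16, edgeR) after loss of the domain. The wild-type libraries lay below all edited libraries. Npc1, the membrane protein that exports cholesterol from the lysosome, rose from 128.1 ± 3.53 CPM (n = 3, SD) to 187.1 ± 5.42 CPM (n = 3, SD) in knock-out and 181.5 ± 5.17 CPM (n = 3, SD) in ΔTAD macrophages. Npc2, which hands cholesterol to Npc1 inside the lysosome, was at 220.8 ± 9.69 CPM (n = 3, SD) in wild-type, 190.7 ± 5.79 CPM (n = 3, SD) in knock-out and 233.1 ± 2.897 CPM (n = 3, SD) in ΔTAD macrophages. Npc2 had a log2 fold change of −0.21 (standard error 0.0383, adjusted p = 4.65e-05, edgeR) after knock-out and 0.08 (standard error 0.03803, adjusted p = 0.077, edgeR) in ΔTAD macrophages. Npc2 lies on chromosome 12, where the 541 genes tested had medians of −0.52 (knock-out) and −0.54 (ΔTAD) on the log2 scale. With an offset for each chromosome, Npc2 turned to 0.31 (adjusted p = 2.01e-07, edgeR) in knock-out and rose to 0.60 (adjusted p = 1.22e-12, edgeR) in ΔTAD macrophages. Npc2 was therefore lower in knock-out macrophages in CPM, which is relative to the whole library, and higher relative to its chromosome in both genotypes.

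Knock-out and ΔTAD macrophages were also compared with each other, which tests whether the edited genotypes differ from each other. Of the 29 genes, 2 were higher and 10 lower in knock-out than in ΔTAD macrophages, against 13.9% of all genes tested called higher and 19.1% called lower, and the median log2 fold change was −0.11 against −0.03 over all genes. Among enzymes, Mvd differed most, with −0.46 (standard error 0.0531, adjusted p = 2.06e-07, edgeR), followed by Acat2 with −0.36 (standard error 0.0467, adjusted p = 1.32e-06, edgeR) and Dhcr7 with −0.31 (standard error 0.0463, adjusted p = 7.19e-06, edgeR). In each, the knock-out libraries lay between the wild-type and the ΔTAD libraries. Srebf2 was lower in knock-out macrophages as well, at −0.17 (standard error 0.0358, adjusted p = 0.000402, edgeR). The 2 genes higher in knock-out than in ΔTAD macrophages were Ggps1, at 0.28 (standard error 0.0652, adjusted p = 0.00138, edgeR), and Mbtps2, at 0.21 (standard error 0.0363, adjusted p = 4.52e-05, edgeR). For others the difference was small and not called, such as Sc5d with 0.00 (standard error 0.0378), Hmgcs1 with −0.05 (standard error 0.0393) and Insig1 with 0.06 (standard error 0.0314). Scaling by library size alone left 2 higher and 4 lower, since Fdft1, Lss, Cyp51, Nsdhl, Ebp and Srebf2 were no longer called, and turned the calls among all genes from 1990 higher and 2740 lower to 2279 higher and 1030 lower. Without ΔTAD replicate 1, 3 were higher and 9 lower, since Hsd17b7 was gained (0.18) and Cyp51 lost its call (−0.11). Without ΔTAD replicate 3, Ggps1 was no longer called (0.21) and 1 gene was higher.

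Genes around the pathway were described in the same way, beside the shares of all genes tested, 22.8% higher and 22.4% lower in knock-out and 26.3% higher and 23.4% lower in ΔTAD macrophages. Of 19 tested genes of sterol transport and ester turnover, 10 were higher and 4 lower in knock-out and 13 higher and 2 lower in ΔTAD macrophages, with a median log2 fold change of 0.26 and 0.41. Lipa, the lysosomal acid lipase that frees cholesterol from its esters, rose from 362 ± 5.86 CPM to 691 ± 15.3 CPM in knock-out and 761 ± 47.2 CPM in ΔTAD macrophages (n = 3, SD). Osbpl8, an oxysterol-binding protein of membrane contact sites, had log2 fold changes of 0.97 (knock-out) and 0.57 (ΔTAD), Scarb2, a lysosomal membrane protein, 0.50 and 0.72, and Lima1 0.64 and 0.69. Of 10 tested LXR and oxysterol genes, 5 were higher and 2 lower in each edited genotype, with medians of 0.19 and 0.21, and the share lower was near that of all genes. Abcg1, which exports cholesterol, had log2 fold changes of 1.41 (knock-out) and 1.72 (ΔTAD), and Rxrb, a partner of LXR, 0.45 and 0.68. Both lie on chromosome 17, whose tested genes had medians of 0.48 and 0.50. Rxrb thus did not exceed the median of its chromosome in knock-out macrophages. Nr1d1, a nuclear receptor of the circadian clock, fell, with log2 fold changes of −1.17 and −0.87. Mylip, an E3 ligase induced by LXR, rose by 0.93 and 0.68 on the log2 scale.

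The fatty acid branch, which SREBP1 drives, did not move in a single direction. Of 14 tested genes, 5 were higher and 4 lower in knock-out macrophages, with a median log2 fold change of −0.01. In ΔTAD macrophages 8 were higher and 3 lower, with a median of 0.18. Acss2, which makes acetyl-CoA from acetate, had log2 fold changes of 0.33 (adjusted p = 0.00158, edgeR) in knock-out and 1.19 (adjusted p = 1.17e-12, edgeR) in ΔTAD macrophages. The desaturases Fads1 and Fads2 rose by 0.60 and 0.39 in knock-out and by 0.75 and 0.62 in ΔTAD macrophages on the log2 scale. Srebf1, which encodes SREBP1, rose by 0.31 in knock-out and 0.48 in ΔTAD macrophages. Fasn, the fatty acid synthase, named here after its values were seen, fell from 947 ± 26.4 CPM to 686 ± 35.5 CPM in knock-out and 782 ± 15.9 CPM in ΔTAD macrophages (n = 3, SD). Between knock-out and ΔTAD macrophages, 10 of the 14 were lower in knock-out and none was higher, where 19.1% of all genes were called lower.

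**Figure D4:**
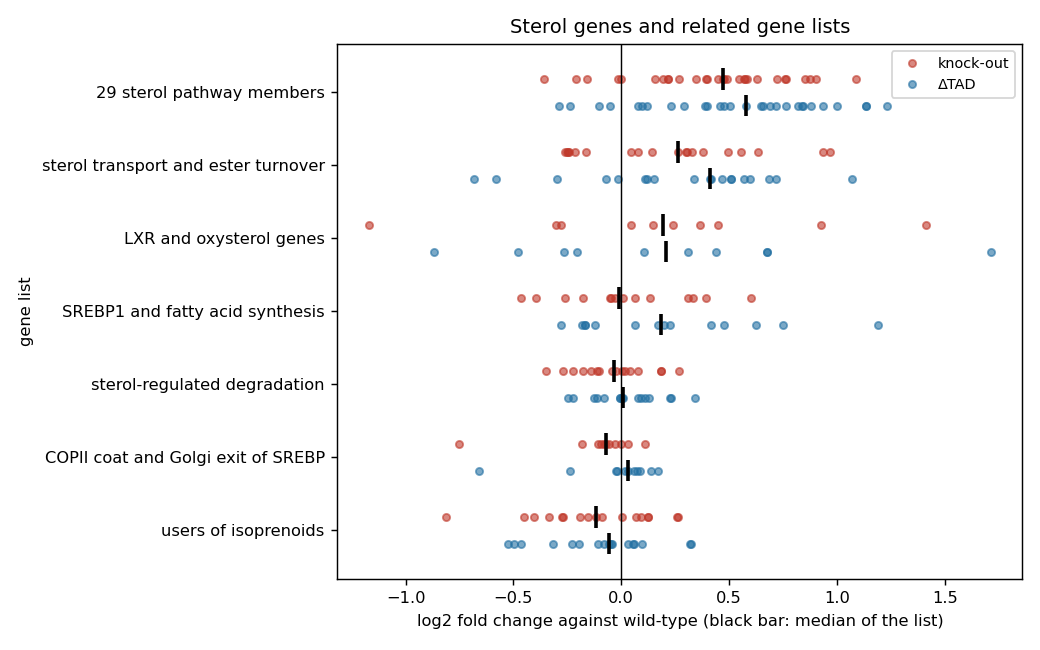
Log2 fold change against wild-type macrophages of each tested gene (points) of the 29 sterol genes and 6 related lists, in knock-out (red) and ΔTAD (blue) macrophages, with the list's median as a black bar. The medians of the sterol genes, 0.47 and 0.58, lie farthest to the right.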

How the data were processed

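RNA of RAW264.7 cells, in 9 libraries with 3 per genotype, was depleted of rRNA and sequenced single-end. Per the labels and methods of the study, the authors trimmed reads with Trimmomatic, aligned them with HISAT2 to GRCm38 and counted reads per gene with HTSeq, and the values deposited are these raw counts. The labels and the methods name different versions of these tools, so none is given. Strand setting and counting mode are not given in the sources used here. Counts on genes made up 46.65% to 53.23% of the records of each library, and the 5 closing tally lines were left out of library sizes and tests. A count of 3, taken as the limit below which a gene is not distinguishable from 0, equals 0.143 to 0.186 CPM, for counting error only.

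Genes were filtered with filterByExpr (minimum count 10, minimum total 15), scaled by TMM and fitted over all 9 libraries with the quasi-likelihood model of edgeR (4.0.16, R 4.3.3), with Benjamini-Hochberg adjustment over 14312 genes and a threshold of 0.01, the adjusted p-value the study used. The common biological coefficient of variation was 0.0468. Standard errors are the absolute log2 fold change over the square root of F. The fit was tested on simulated data. Alternatives were DESeq2 (1.42.0), other scalings, no filter, fits of the compared genotypes alone, an offset per chromosome, a replicate block, a threshold of 0.05 and leaving out each library. No 2 libraries held identical counts. Exon lengths and gene positions came from GENCODE vM21 (GRCm38).

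The 29 genes and the related lists were chosen with earlier results of these data known. Levels in each library are given for Srebf2, Scap, Insig1, Insig2 and the 10 genes with the largest absolute log2 fold change among those called. Because these 10 were chosen by the size of their change, groups that do not overlap are not a separate result for them. Other lists name at most 4 called genes by the same ranking, besides genes said to be named after their values were seen.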

Additional observations from a re-analysis of the deposited data

Results flagged for a closer look

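Values here stand out because the direct comparison of knock-out with ΔTAD macrophages was called, at an adjusted p-value under 0.01 by edgeR's quasi-likelihood fit, so the edited genotypes differed in their distance from wild-type. On the log2 scale, Mvd was at −0.46, Acat2 at −0.36, Dhcr7 at −0.31, Npc2 at −0.29, Nsdhl at −0.25, Fdft1 at −0.23, Ebp at −0.23, Lss at −0.18, Srebf2 at −0.17 and Cyp51 at −0.15, all lower in knock-out macrophages. Ggps1 at 0.275 and Mbtps2 at 0.21 were higher in knock-out macrophages. Npc2 moved to opposite sides of wild-type, lower in all 3 knock-out libraries and higher in all 3 ΔTAD libraries, although its rise in ΔTAD macrophages was not called. Ebp overlapped wild-type in knock-out macrophages and Mbtps2 did so in ΔTAD macrophages.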

How the results depend on the processing

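Of 1479 values of the 29 genes under alternatives, 53 changed their call or direction. The only reversal was Npc2 in knock-out against wild-type macrophages, at 0.31 with an offset for each chromosome. Of the others, 31 lost and 21 gained a call. The number lower in knock-out than in ΔTAD macrophages, 10, became 4 with library size alone and 16 at an adjusted p-value under 0.05, as follows from the looser threshold. Leaving out each library gave 1 to 3 genes higher and 9 to 10 lower in that comparison, 22 to 24 higher in knock-out and 20 to 23 higher in ΔTAD against wild-type macrophages. The cause of the other changes was not tested. DESeq2 gave 24 higher and 3 lower in knock-out and 22 higher and 3 lower in ΔTAD macrophages.

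The replicate block changed no call of the 29 genes, leaving 24 higher and 3 lower in knock-out, 23 higher and 2 lower in ΔTAD, and 2 higher and 10 lower between the edited genotypes. Same-numbered libraries showed deviations with correlations of −0.0717 to 0.02, against −0.0547 to 0.081 for libraries of different number. No pairing by number was seen, which does not show that the samples were handled unpaired. Depth limits Tm7sf2 and Idi1 most, whose counts were low.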

Other observations

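The lists below stand beside shares of all genes tested of 22.8% higher and 22.4% lower in knock-out and 26.3% higher and 23.4% lower in ΔTAD macrophages. Of 17 tested users of isoprenoids, 2 were higher and 7 lower in knock-out and 2 higher and 5 lower in ΔTAD macrophages, with medians of −0.12 and −0.06 on the log2 scale. Pdss1 and Pdss2, which build the side chain of ubiquinone, had log2 fold changes of −0.45 and −0.33 in knock-out and −0.50 and −0.32 in ΔTAD macrophages. Nus1, a subunit of the enzyme that makes dolichol precursors, fell from 244.9 ± 10.8 CPM to 185.1 ± 2.92 CPM and 177.4 ± 4.06 CPM (n = 3, SD). Fntb, the beta subunit of protein farnesyltransferase, had −0.81 and −0.52 on chromosome 12, whose tested genes had medians of −0.52 and −0.54. The genes called higher are named here after their values were seen. Coq2 rose by 0.26 in knock-out and 0.32 in ΔTAD macrophages on the log2 scale. Chml was called in knock-out macrophages only (0.26) and Dhdds in ΔTAD macrophages only (0.32).

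Of 11 genes of the COPII coat, which carries SREBP2 out of the endoplasmic reticulum, 1 was higher and 2 lower in knock-out and 2 higher and 2 lower in ΔTAD macrophages. Sec23a, also on chromosome 12, had log2 fold changes of −0.75 and −0.66. Of 16 genes of sterol-regulated protein degradation, 3 were higher and 4 lower in knock-out and 3 higher and 3 lower in ΔTAD macrophages, with medians of −0.03 and 0.01. Rnf145, an E3 ligase of the endoplasmic reticulum, had −0.35 and −0.23, and Fbxw7, which marks nuclear SREBP for degradation, had 0.27 and 0.13.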
